A study of Mus musculus with 6 samples.

Results

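10 genes of the switch that moves cells out of G0 and through G1 were followed in naive CD4+ T cells: 2 D-type cyclins (Ccnd2 and Ccnd3), cyclin G2 (Ccng2), 3 cyclin-dependent kinases (Cdk2, Cdk4 and Cdk6), 3 inhibitors of these kinases (Cdkn1b, Cdkn2c and Cdkn2d) and the retinoblastoma gene Rb1. They were taken by symbol, 10 of the 55487 genes in the deposited tables, and all 10 passed the filter on low counts that left 11950 genes to test. Poly(A) RNA was sequenced from 3 libraries of mice given Rapamycin in vivo and from 3 libraries of mice given no treatment. All were WT C57BL6/J mice, and the cells were labelled as naive CD4+ T cells of the spleen, called TN cells. Rapamycin inhibits mTOR, the kinase that couples nutrient and growth factor signals to cell growth, and the series asks how its inhibition changes the phenotype of these cells. The labels used here give no age, sex, dose or duration, and they do not say whether the 3 libraries of a group came from separate mice, so the spread behind each p-value is that of these libraries and may be technical.

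As background, D-type cyclins bind CDK4 and CDK6 when growth signals arrive, and the active kinases phosphorylate the retinoblastoma protein. Phosphorylated retinoblastoma protein lets go of E2F transcription factors, and CDK2 with cyclin E completes the step into S phase. The INK4 inhibitors, among them the products of Cdkn2c (p18) and Cdkn2d (p19), bind CDK4 and CDK6, while p27, the product of Cdkn1b, binds cyclin-CDK complexes and is known for holding resting T cells out of cycle. Cyclin G2 differs from the other cyclins in being abundant in cells that have stopped dividing, and Ccng2 and Cdkn1b are known targets of FOXO transcription factors.

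The promoters of 4 of the genes are shown because these genes carried the clearest changes, 3 upward (Cdk6, Cdkn1b and Ccng2) and 1 downward (Cdk4). Each is 300 bases from RefSeq on GRCm38.p6, running from 250 bases before to 50 after a start that RefSeq gives, and capitals mark matches to the motifs searched. For Cdk6 and Ccng2 that start lies downstream of the GENCODE gene start given below, so these windows fall inside the GENCODE gene. 8 of the 10 genes had a promoter in the table, with 10 promoters in all.
Cdk4, chr10:127063285-127063584, plus strand: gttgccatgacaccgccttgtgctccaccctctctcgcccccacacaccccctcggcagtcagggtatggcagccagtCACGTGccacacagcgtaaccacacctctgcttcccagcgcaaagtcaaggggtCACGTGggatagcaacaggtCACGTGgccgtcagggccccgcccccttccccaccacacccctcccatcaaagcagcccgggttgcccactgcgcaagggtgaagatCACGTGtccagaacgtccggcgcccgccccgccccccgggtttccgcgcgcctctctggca
Cdk6, chr5:3343643-3343942, plus strand: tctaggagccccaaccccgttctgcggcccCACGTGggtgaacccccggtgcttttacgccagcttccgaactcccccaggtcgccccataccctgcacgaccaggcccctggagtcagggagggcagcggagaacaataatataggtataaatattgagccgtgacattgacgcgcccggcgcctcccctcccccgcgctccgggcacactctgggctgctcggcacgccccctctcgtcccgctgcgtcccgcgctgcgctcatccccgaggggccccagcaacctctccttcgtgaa
Cdkn1b, chr6:134920151-134920450, plus strand: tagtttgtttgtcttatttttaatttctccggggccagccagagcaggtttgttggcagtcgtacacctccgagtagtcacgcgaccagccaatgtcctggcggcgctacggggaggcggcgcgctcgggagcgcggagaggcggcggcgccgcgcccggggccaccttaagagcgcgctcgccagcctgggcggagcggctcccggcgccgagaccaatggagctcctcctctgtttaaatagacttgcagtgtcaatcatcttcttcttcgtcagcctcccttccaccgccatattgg
Ccng2, chr5:93267323-93267622, plus strand: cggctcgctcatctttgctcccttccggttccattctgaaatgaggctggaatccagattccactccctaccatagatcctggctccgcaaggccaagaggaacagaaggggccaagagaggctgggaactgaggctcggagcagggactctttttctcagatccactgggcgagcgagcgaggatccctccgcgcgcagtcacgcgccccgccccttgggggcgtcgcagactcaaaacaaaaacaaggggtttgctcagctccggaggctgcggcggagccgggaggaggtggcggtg
Both strands were searched for the E-box CACGTG, which MYC, MAX and related factors bind, for the FOXO motif GTAAACA, for the E2F motifs TTTCGCGC, TTTGGCGC and TTTCCCGC, and for the cyclic AMP response element TGACGTCA; none of these motifs contains another. The Cdk4 promoter held 4 E-boxes, which began at −172, −118, −98 and −11 from the start. Across all 32851 listed promoters, 7.15% held at least 1 E-box and 8 promoters, or 0.0244%, held 4 or more. The E-box contains the letters CG. Over all promoters the median was 7 CG pairs and 52.7% G or C, against 22 pairs and 67.0% in the Cdk4 promoter. The shares given here were not matched for such content. The Cdk6 promoter held 1 E-box at −220, and no searched motif lay in these windows of Cdkn1b or Ccng2. Among the promoters not printed, 1 of the 2 of Ccnd3 held a FOXO motif at −243, which 3.65% of all promoters hold, 1 of the 2 of Cdkn2c held an E-box at 35, and that of Cdk2 held an E2F motif at −140, which 1.84% hold. The cyclic AMP response element, found in 1.79% of promoters, lay in none of the 10. These matches describe letters only.

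Libraries held between 8757280 and 9315370 expected counts in the rapamycin group and between 9712671 and 11393317 in the untreated group. Levels below are CPM, counts scaled to a common library size with composition factors, and changes are log2 fold changes of rapamycin over untreated, ± SE. The test was the quasi-likelihood one of edgeR, its p-values adjusted by the Benjamini-Hochberg method over all 11950 genes, with a threshold of 0.05. Fold changes in these libraries followed gene length (Spearman's rho 0.51 across 9979 genes, which are not independent replicates), so values with a length correction are also given for the 10 genes and for lists whose counts it changed. The defining T cell genes were present, with Cd3e at 348 ± 3.15 CPM in rapamycin and 357 ± 3.54 CPM in untreated libraries and Cd4 at 687 ± 9.29 and 716 ± 11.6 CPM (SD, n = 3 each). Cd3e was not called (−0.04, adjusted p = 0.258), but was called higher with the length correction (0.11, adjusted p = 3.23e-04). Other T cell receptor complex genes fell, with Trac at 391 CPM in rapamycin and 678 CPM in untreated libraries (−0.80; length-corrected −0.52), Cd3d at 275 and 347 CPM (−0.34; −0.22) and Cd3g at 295 and 369 CPM (−0.32; −0.09); these 3 were named after their values were seen. RNA of other cells was present in both groups, with B cell markers summing to at least 1660 CPM in rapamycin and 2020 CPM in untreated libraries.

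With rapamycin, 4 of the 10 genes rose and 2 fell. Cdk6, Cdkn1b, Ccng2 and Rb1 were higher, by 1.94-fold, 1.51-fold, 1.43-fold and 1.17-fold on mean CPM, and Cdk4 and Cdkn2d were lower, at 0.737 and 0.770 of the untreated mean. Ccnd2, Ccnd3, Cdk2 and Cdkn2c did not pass the test. Across all tested genes 47.4% were called, 24.1% higher and 23.3% lower, so that 6 called of 10 is near the background of this comparison. The median log2 fold change of the 10 genes was −0.02, beside −0.01 over all tested genes. With the length correction 3 of the 10 were higher and 3 lower, where 38.5% of all genes were called (20.2% higher and 18.3% lower), because Rb1 lost its call and Ccnd2 gained one. The CPM ranges of the 2 groups did not overlap for the 6 called genes, and the same held for 53.8% of all genes.

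**Figure D1:**
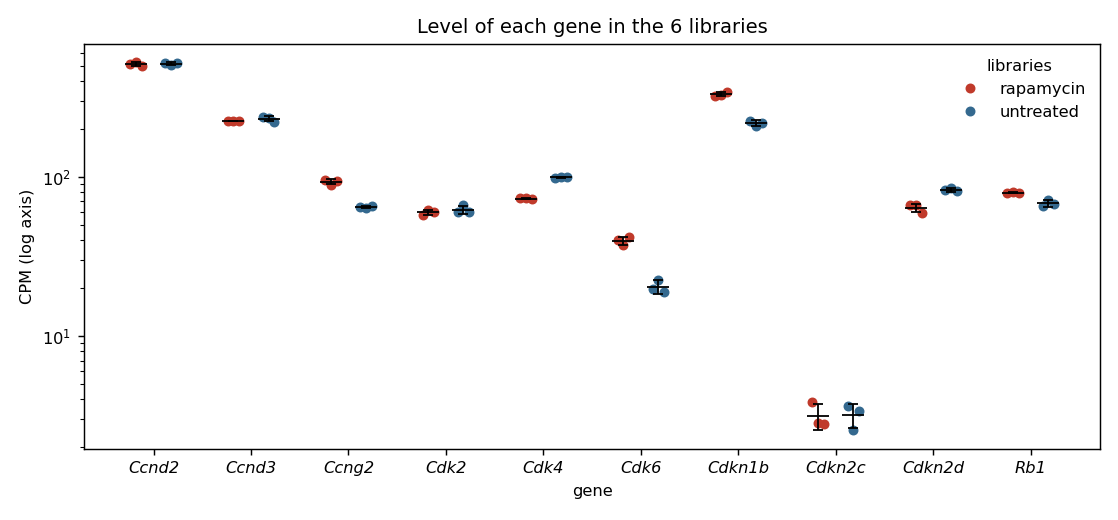
CPM on a log axis for each of the 10 genes, with rapamycin libraries in red left of untreated libraries in blue; points are libraries and bars the mean ± SD (n = 3 each). The groups lie apart for Ccng2, Cdk4, Cdk6, Cdkn1b, Cdkn2d and Rb1, and overlap for Ccnd2, Ccnd3, Cdk2 and Cdkn2c.

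The D-type cyclins, the regulatory subunits of CDK4 and CDK6, did not pass the test. Ccnd2 (ENSMUSG00000000184, mm10 chromosome 6, 127125162 to 127152193, minus strand) had 509, 523 and 496 CPM in rapamycin libraries, against 522, 504 and 516 CPM in untreated libraries. The groups overlapped, and the log2 fold change was −0.01 ± 0.02 (adjusted p = 0.681), with a 95% interval from −0.06 to 0.03. The length correction moved it to −0.19 ± 0.02 and made it a call (adjusted p = 2.32e-09), and upper-quartile factors also made it one (−0.06, adjusted p = 0.0442), so the call of Ccnd2 depended on the scaling. Ccnd3 (ENSMUSG00000034165, mm10 chromosome 17, 47505051 to 47599691, plus strand) had 224, 225 and 223 CPM in rapamycin libraries, against 238, 233 and 221 CPM in untreated libraries. Only untreated replicate 3 lay below the rapamycin libraries, and the change was −0.05 ± 0.03 (adjusted p = 0.228), with a 95% interval from −0.11 to 0.02. The call depended on the scaling, with −0.09 (adjusted p = 0.0140) under upper-quartile factors, −0.09 (adjusted p = 0.0161) with no composition factors and 0.07 (adjusted p = 0.0495) with a length and GC correction. Upper-quartile factors and no composition factors moved the median of all genes by −0.043 and −0.041, about as much as they moved Ccnd3 and Ccnd2. The third D-type cyclin gene, Ccnd1, was close to the floor, with 0.328, 0.338 and 0.927 CPM in rapamycin libraries and 1.21, 1.43 and 1.83 CPM in untreated libraries, where a floor of 3 counts is between 0.263 and 0.343 CPM. Its groups did not overlap and it fell (−1.47 ± 0.49, adjusted p = 0.0109), although 2 rapamycin libraries lay at about that floor and a fitted fold at such levels depends on the prior count.

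Per length, in TPM, the 3 D-type cyclin genes summed to 361, 399 and 392 in rapamycin libraries and to 393, 362 and 369 in untreated libraries. Ccnd2 made up 41.0 ± 2.33% of that sum in rapamycin and 40.8 ± 2.01% in untreated libraries (SD, n = 3 each), and the groups overlapped. With 3 libraries against 3 an exact two-sided permutation test cannot go below 0.1, so ratios within libraries are given as values without a test. On TPM the split between cyclin D2 and cyclin D3 transcripts therefore differed by less than the spread between libraries. This share does not have the length correction, under which Ccnd2 changed by −0.19 ± 0.02 and Ccnd3 by 0.06 ± 0.03. Whether the split moved thus depended on that correction.

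Cyclin G2 moved unlike the D-type cyclins. Ccng2 (ENSMUSG00000029385, mm10 chromosome 5, 93267257 to 93276231, plus strand) had 95.6, 89.3 and 94.7 CPM in rapamycin libraries, against 64.8, 64.1 and 65.9 CPM in untreated libraries. Every rapamycin library lay above every untreated one, and the rise was 0.52 ± 0.05 (adjusted p = 3.72e-13). The length correction left it at 0.50.

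The 2 kinases that partner D-type cyclins changed in opposite directions. Cdk4 (ENSMUSG00000006728, mm10 chromosome 10, 127063534 to 127067920, plus strand), whose promoter with 4 E-boxes is printed above, had 73.6, 73.3 and 72.1 CPM in rapamycin libraries, against 97.9, 100 and 99.3 CPM in untreated libraries. All 3 rapamycin libraries were lower than all 3 untreated ones, and it fell by 0.44 on the log2 scale (SE 0.05, adjusted p = 1.87e-11), or to −0.28 ± 0.05 with the length correction (adjusted p = 3.65e-06). Cdk6 (ENSMUSG00000040274, mm10 chromosome 5, 3341485 to 3531008, plus strand) had 39.9, 37.2 and 41.9 CPM in rapamycin libraries, against 19.7, 22.6 and 19.0 CPM in untreated libraries. The lowest rapamycin library was well above the highest untreated one, and the rise of 0.96 ± 0.09 (adjusted p = 2.22e-14; length-corrected 0.72) ranked 219th from the top among the 11950 tested genes. The call of Cdk6 was lost with offsets from the deposited effective lengths, where the change was 1.39 with an adjusted p of 0.0707. Cdk2 (ENSMUSG00000025358, mm10 chromosome 10, 128697939 to 128705031, minus strand), the partner of cyclins E and A, had 57.7, 61.9 and 60.4 CPM in rapamycin libraries and 59.7, 66.3 and 60.3 CPM in untreated libraries. These ranges overlapped, and the change was −0.05 ± 0.06 (adjusted p = 0.516; 95% interval −0.17 to 0.07).

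**Figure D2:**
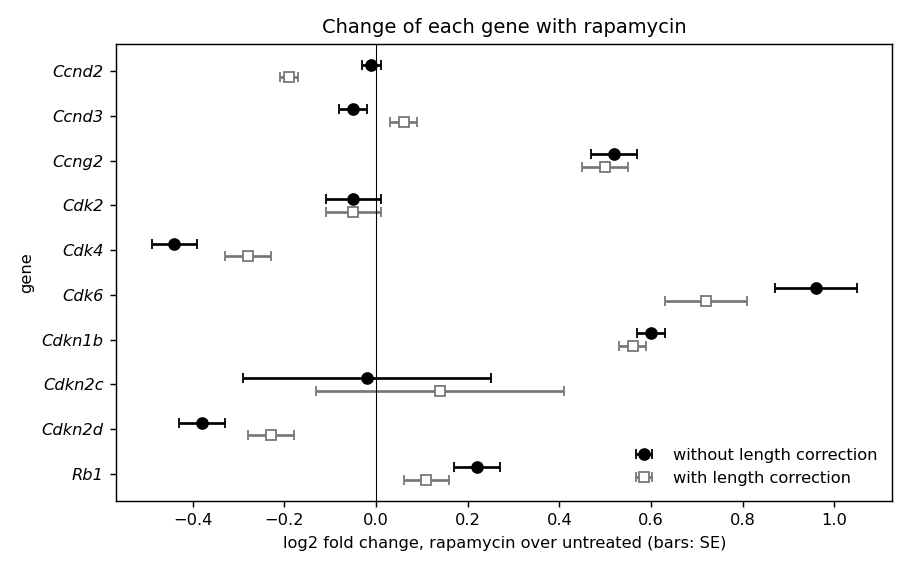
Log2 fold change of rapamycin over untreated for each of the 10 genes, with bars for the SE, without (filled circles) and with (open squares) the length correction. Cdk6, Cdkn1b and Ccng2 lie to the right of 0 and Cdk4 and Cdkn2d to the left in both fits, while Ccnd2 moves from −0.01 to −0.19 and Rb1 from 0.22 to 0.11.

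The balance of the 2 kinases within each library moved with them. In TPM there were 0.144, 0.191 and 0.112 Cdk6 transcripts per Cdk4 transcript in rapamycin libraries, against 0.0193, 0.0583 and 0.0373 in untreated libraries. Cdk4 was the more abundant kinase in all 6 libraries, and the ratio was higher in each rapamycin library than in any untreated one, with means of 0.149 ± 0.0399 and 0.0383 ± 0.0195 (SD, n = 3 each), a 3.89-fold difference. On expected counts, which do not depend on the estimated transcript length, the ratios were 0.544 ± 0.0370 in rapamycin and 0.206 ± 0.0179 in untreated libraries, a 2.64-fold difference. The TPM ratio carries the estimated Cdk6 length, which was 11525 bases in untreated replicate 1, the library with the lowest ratio. Neither ratio has the length correction, under which Cdk6 rose by 0.72 and Cdk4 changed by −0.28 on the log2 scale.

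Among the kinase inhibitors, Cdkn1b and Cdkn2d also went opposite ways. Cdkn1b (ENSMUSG00000003031, mm10 chromosome 6, 134920401 to 134925513, plus strand) had 322, 328 and 339 CPM in rapamycin libraries, against 225, 209 and 219 CPM in untreated libraries. The groups lay far apart relative to their spread, and the rise of 0.60 ± 0.03 had the smallest adjusted p of the 10 genes (1.14e-25; length-corrected 0.56). Cdkn2d (ENSMUSG00000096472, mm10 chromosome 9, 21288410 to 21291407, minus strand) had 66.3, 66.1 and 59.2 CPM in rapamycin libraries, against 82.2, 85.5 and 81.1 CPM in untreated libraries. All rapamycin libraries lay below all untreated ones, and it fell by 0.38 on the log2 scale (SE 0.05, adjusted p = 3.81e-08), or to −0.23 ± 0.05 with the length correction (adjusted p = 5.95e-04). Cdkn2c (ENSMUSG00000028551, mm10 chromosome 4, 109660876 to 109667189, minus strand) was scarce, with 3.82, 2.82 and 2.78 CPM in rapamycin libraries and 3.64, 2.57 and 3.36 CPM in untreated libraries. At between 24 and 42 expected counts per library its change of −0.02 ± 0.27 (adjusted p = 0.957) had a 95% interval from −0.56 to 0.52, so the counts were compatible with any change within those limits.

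The ratio of summed inhibitor to summed CDK4 and CDK6 transcripts was higher in every rapamycin library than in any untreated one. Of the 3 inhibitor genes only Cdkn1b rose, and of the kinase genes in the ratio Cdk4 fell while Cdk6, the scarcer of them, rose. This ratio does not have the length correction. Cdk2 was not part of the ratio. The summed TPM of Cdkn1b, Cdkn2c and Cdkn2d over the summed TPM of Cdk4 and Cdk6 was 2.68, 2.54 and 2.43 in rapamycin libraries, against 1.68, 1.37 and 1.64 in untreated libraries. The means were 2.55 ± 0.121 and 1.56 ± 0.166 (SD, n = 3 each), and on expected counts the ratio was 3.52 ± 0.0659 in rapamycin and 2.54 ± 0.114 in untreated libraries. By group means Cdkn1b was the larger part of this sum, with 176 ± 7.20 TPM in rapamycin and 102 ± 4.22 TPM in untreated libraries, beside 78.1 ± 5.82 and 94.3 ± 3.33 TPM for Cdkn2d, although in untreated replicate 2 Cdkn2d (98.1 TPM) was slightly above Cdkn1b (97.6 TPM).

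**Figure D3:**
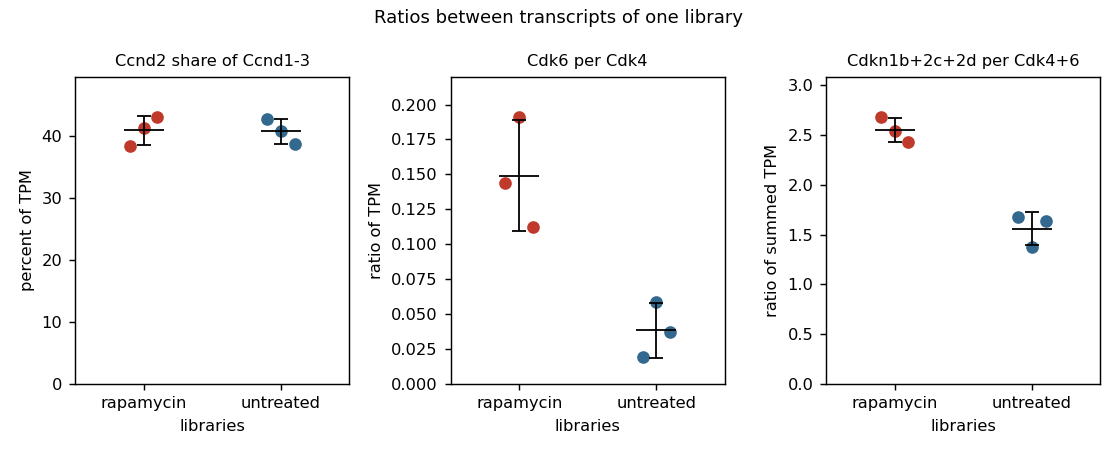
Ratios of TPM within each library, with rapamycin libraries in red left of untreated libraries in blue and bars for the mean ± SD (n = 3 each). The Ccnd2 share of D-type cyclin transcripts overlaps between the groups (41.0% and 40.8%), while Cdk6 per Cdk4 (0.149 and 0.0383) and inhibitors per kinase (2.55 and 1.56) do not.

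Rb1 (ENSMUSG00000022105, mm10 chromosome 14, 73183673 to 73325822, minus strand), which encodes the substrate of these kinases, had 78.8, 80.5 and 79.0 CPM in rapamycin libraries, against 65.3, 71.4 and 67.5 CPM in untreated libraries. The groups did not overlap and it rose by 0.22 ± 0.05 (adjusted p = 3.72e-04). With the length correction the value was 0.11 ± 0.05 and no longer called (adjusted p = 0.0998), and on log2(TPM + 1) limma gave 0.36 with an adjusted p of 0.0502. On that scale 3 of the 10 genes were higher and 2 lower, where limma called 32.4% of all genes, 22.7% higher and 9.69% lower.

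Ordered per length, the 10 genes spanned from Ccnd3 at 226 ± 7.02 TPM in rapamycin and 221 ± 6.09 TPM in untreated libraries to Cdkn2c at 4.38 ± 0.332 and 3.47 ± 0.632 TPM. In untreated libraries the order after Ccnd3 was Ccnd2 (153 TPM), Cdk4 (124 TPM), Cdkn1b (102 TPM), Cdkn2d (94.3 TPM), Cdk2 (36.0 TPM), Ccng2 (34.4 TPM), Rb1 (24.3 TPM) and Cdk6 (4.87 TPM). The libraries of neighbours overlapped for Cdkn1b and Cdkn2d, for Cdk2 and Ccng2, and for Cdk6 and Cdkn2c. In rapamycin libraries Cdkn1b (176 TPM) stood after Ccnd3, overlapping with Ccnd2 (157 TPM), and Ccng2 (52.2 TPM) stood before Cdk2 (36.5 TPM) without overlap. Cdk6 (13.1 TPM) then stood apart from Cdkn2c (4.38 TPM).

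The deposited length of a gene is an average over its transcripts weighted by their estimated abundance, and so gives a view of isoform use that CPM does not. Of the 10 genes, only Cdkn1b had lengths that did not overlap between the groups, with 2931, 2855 and 2856 bases in rapamycin libraries and 3044, 3063 and 3012 bases in untreated libraries. The annotated Cdkn1b transcripts measure 2393, 4552 and 1757 bases. Among the 9902 tested genes whose length varied, 17.7% had groups that did not overlap, so 1 of 10 is no more than the background. The count was 3 without untreated replicate 2, rapamycin replicate 1 or rapamycin replicate 3 and 2 without rapamycin replicate 2. With fewer libraries the ranges of any gene overlap less readily. The share over all genes was not counted there, so these counts cannot be set beside 17.7%. Cdk6 lengths varied most, from 3383 to 5751 bases in rapamycin libraries and from 3981 to 11525 bases in untreated libraries. In untreated replicate 1 the length of 11525 bases equalled that of the longest annotated Cdk6 transcript. The TPM of Cdk6, which is divided by this length, was correspondingly spread, at 11.9, 16.6 and 10.7 in rapamycin libraries and 2.29, 7.97 and 4.35 in untreated libraries.

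**Figure D4:**
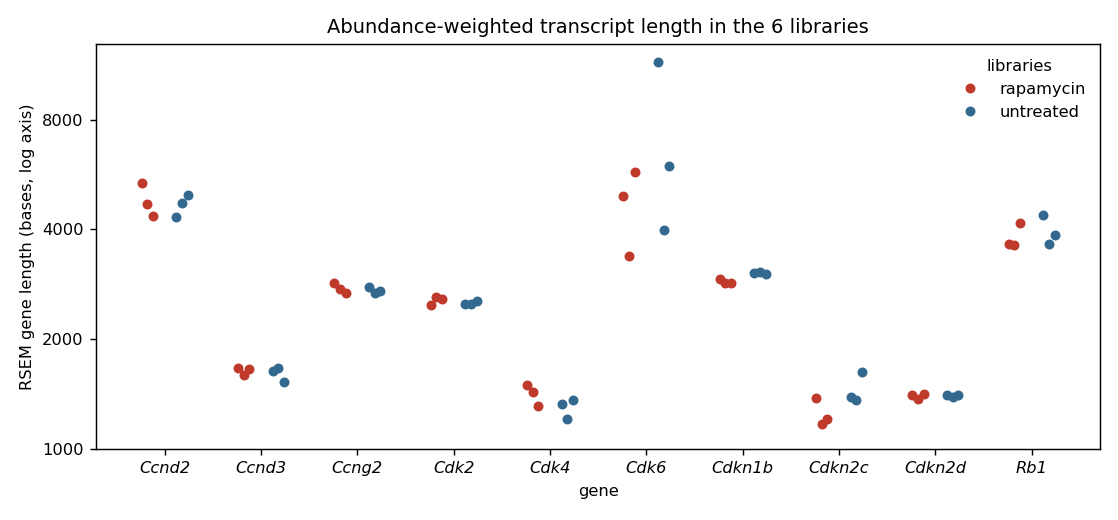
RSEM gene length in bases on a log axis for each of the 10 genes, one point per library, with rapamycin in red left of untreated in blue. Cdkn1b lengths lie between 2855 and 2931 in rapamycin and between 3012 and 3063 in untreated libraries, and Cdk6 lengths range up to 11525 in 1 untreated library.

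Some of the 10 genes share exon positions with genes on the opposite strand, and the strand setting of the counting is not given in the sources used here, so their reads may not be fully apart. Cdk4 shares 641 exon bases with Tspan31, which had 6.39 CPM in rapamycin and 11.2 CPM in untreated libraries, and both genes summed to 79.4 and 110 CPM. Rb1 shares 488 bases with Rcbtb2 and 408 with Lpar6, which lies inside it. Rcbtb2 had 39.0 CPM in rapamycin and 51.9 CPM in untreated libraries and Lpar6 had 37.8 and 44.0 CPM, changes of −0.41 and −0.22 against the 0.22 of Rb1. Summed with Rcbtb2, Rb1 came to 118 CPM in rapamycin and 120 CPM in untreated libraries, and summed with Lpar6 to 117 and 112 CPM. Such sums hold all reads of both genes and so follow the partner's own change too. They cannot show whether reads at shared positions went to the wrong gene. Ccnd3 shares 361 bases with Bysl, which fell (−0.42, adjusted p = 6.49e-06), and Cdk2 shares 34 with Pmel (4.47 CPM in rapamycin, 4.61 CPM in untreated). The antisense genes at Ccnd2 and Cdk6 had mean expected counts of at most 4.3. The expected counts of Ccnd3 and Cdk4 were not whole numbers, within 0.005, in any of the 6 libraries, while those of Ccng2, Cdk2, Cdk6, Cdkn1b, Cdkn2c and Cdkn2d were whole in all 6. Those of Rb1 were not whole in 2 libraries and those of Ccnd2 in 1. Counts that are not whole happen where reads are shared between genes, but they do not tell which genes. They did not follow the overlaps above, as Cdk2 and Rb1 also share exon positions.

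The rest of the G1 pathway was read from lists of 52 other genes, of which 43 passed the filter. Of these 7 rose and 12 fell, with a median of −0.12 beside −0.01 over all tested genes, or 4 and 11 with the length correction (median −0.09). The 19 called of 43 are near the 47.4% called over all genes, and the 15 with the length correction are near its 38.5%. Among 10 tested cyclins and kinases 3 fell and the other 7 were not called, beside 24.1% higher and 23.3% lower over all genes. Those that fell were Ccnd1, given above, and 2 parts of the CDK-activating kinase, Ccnh and Mnat1. Ccnh had 15.9 CPM in rapamycin and 20.4 CPM in untreated libraries (−0.37, adjusted p = 0.00471, and length-corrected −0.18, adjusted p = 0.204). Mnat1 had 11.1 and 15.1 CPM (−0.44, adjusted p = 0.00486). With the length correction 3 were again lower, where 18.3% of all genes were, because Ccnh lost its call and Ccng1 gained one (−0.14, adjusted p = 0.00349). The S phase cyclin gene Ccna2 and the mitotic kinase gene Cdk1 did not pass the filter. Of 5 other inhibitor genes only Cdkn1c was tested, at 1.95 CPM in rapamycin and 1.79 CPM in untreated libraries (adjusted p = 0.830). Cdkn1a, which encodes p21, was below the filter with 1.86, 1.13 and 0.579 CPM in rapamycin libraries and 0.260, 0.761 and 0 CPM in untreated libraries. Cdkn2a had no count in any of the 6 libraries, which allows up to 0.343 CPM.

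Of 16 tested genes for pocket proteins, E2F factors and the DREAM complex, which represses cell cycle genes in resting cells, 3 rose and 7 fell, with a median of −0.13, against 24.1% higher and 23.3% lower over all genes. With the length correction 2 were higher and 6 lower, against 20.2% higher and 18.3% lower over all genes. Tfdp1, a dimer partner of E2F proteins, fell to 28.2 ± 1.23 CPM in rapamycin libraries, against 40.3 ± 2.58 CPM in untreated libraries (−0.52 ± 0.08, adjusted p = 1.52e-07). The activator gene E2f2 fell to 15.5 ± 2.58 CPM, against 23.1 ± 1.48 CPM in untreated libraries (−0.57 ± 0.11, adjusted p = 1.65e-05). Rbl1, which encodes the pocket protein p107, rose to 87.9 ± 4.20 CPM, against 71.4 ± 4.71 CPM in untreated libraries (0.30 ± 0.05, adjusted p = 4.60e-06; length-corrected 0.15, adjusted p = 0.0177). Tfdp2, the other dimer partner, rose by 0.43 ± 0.10 (adjusted p = 2.94e-04) to 27.7 CPM in rapamycin libraries, against 20.6 CPM in untreated ones. Both dimer partners passed the test, in opposite directions.

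Of 16 tested genes that activate cyclin-CDK complexes or control their turnover, 4 rose and 2 fell, with a median of −0.08, or 2 and 2 with the length correction; fewer than the 47.4% of all genes were called. Cdc25b, which encodes a phosphatase that activates cyclin-dependent kinases, had 128, 134 and 129 CPM in rapamycin libraries, against 45.6, 44.2 and 48.7 CPM in untreated libraries. This rise of 1.50 ± 0.05 (adjusted p = 1.80e-33) had the smallest adjusted p of the 43 genes. Cdc37, a chaperone partner that folds CDK4 and CDK6, fell to 224 ± 2.78 CPM, against 269 ± 9.91 CPM in untreated libraries (−0.26 ± 0.03, adjusted p = 7.56e-11). Ambra1, which takes part in the destruction of D-type cyclins, rose by 0.18 and Skp1a, a ubiquitin ligase subunit gene, changed by −0.16, and with the length correction neither was called (−0.01 and −0.02).

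Of 16 tested genes that are transcribed in S, G2 and M phase, 1 rose and 5 fell, with a median of −0.02, a smaller called share than the 47.4% over all genes. With the length correction 1 was higher and 4 lower, against 20.2% higher and 18.3% lower over all genes. The replication helicase gene Mcm7 rose to 84.4 ± 2.34 CPM in rapamycin libraries, against 66.7 ± 3.65 CPM in untreated libraries (0.34 ± 0.05, adjusted p = 3.10e-07). Top2a, the DNA topoisomerase of dividing cells, was scarce and fell to 2.79 ± 1.39 CPM, against 6.35 ± 1.12 CPM in untreated libraries (−1.18 ± 0.25, adjusted p = 6.67e-05). The ribonucleotide reductase gene Rrm1 fell by 0.30 on the log2 scale, and the polymerase clamp gene Pcna changed by −0.20 (length-corrected −0.05, adjusted p = 0.351).

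**Figure D5:**
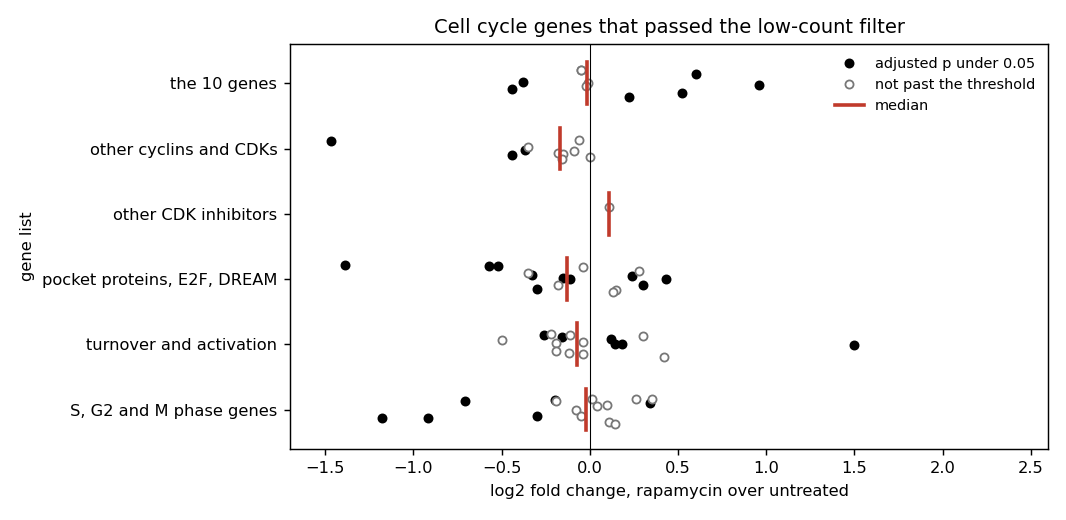
Log2 fold change of rapamycin over untreated for the tested genes of each list, with filled points past an adjusted p of 0.05, open points not past it, and a red bar for the median. The medians lie between −0.17 and 0.11, and the 10 genes spread from −0.44 to 0.96 around a median of −0.02.

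Markers of other cells also moved between the groups, and in bulk RNA fewer cells of a type and less RNA per cell cannot be told apart. Of 12 naive CD4+ T cell markers 6 rose and 5 fell, with sums of 8300 to 8380 CPM in rapamycin and 7600 to 7710 CPM in untreated libraries. Both CD8 co-receptor genes rose and summed to between 87.9 and 91.0 CPM in rapamycin and between 19.1 and 20.5 CPM in untreated libraries, with Cd8a at 43.4 and 5.07 CPM. All 4 tested effector and memory genes fell, and the 7 listed summed to between 70.9 and 73.1 CPM in rapamycin and between 108 and 117 CPM in untreated libraries, with Cd44 at 10.7 and 33.7 CPM. Of 8 myeloid markers 6 fell, with sums of 41.1 to 44.3 CPM in rapamycin and 76.8 to 80.3 CPM in untreated libraries, and Lyz2 at 3.71 and 17.1 CPM. Of 8 B cell markers 4 fell, with sums of 1660 to 1720 CPM in rapamycin and 2020 to 2060 CPM in untreated libraries; with the length correction 1 was higher and 2 lower. Ighm, at 530 CPM in rapamycin and 794 CPM in untreated libraries, made up most of the difference in that sum. Of 6 tested NK cell markers 3 fell and 1 rose, with sums over all 8 of 59.6 to 63.9 CPM in rapamycin and 70.0 to 73.6 CPM in untreated libraries. Of 5 plasma cell markers 3 fell and 1 rose (56.2 to 60.4 CPM in rapamycin, 69.2 to 72.2 CPM in untreated). Of 3 tested erythroid markers 2 fell (sums over 5 genes of 2.62 to 2.78 and 7.51 to 10.5 CPM). Of 4 regulatory T cell markers 2 rose (16.9 to 20.9 CPM in rapamycin, 11.4 to 12.2 CPM in untreated). The part of these cells in the changes of the 10 genes was not tested.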

How the data were processed

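For each of the 6 libraries the authors deposited 1 table of 55487 genes with length, effective length, expected counts, TPM and FPKM, per the file headers. STAR, RSEM and mm10 are named in the submitters' processing notes; their versions and settings are not given in the sources used here. According to the labels' protocols, libraries were made with the NEBNext Ultra II Directional kit. The deposited expected counts are estimates and were rounded to whole numbers. The authors' TPM values were used for levels per length and ratios, and the deposited FPKM values were not used further. Symbols came from GENCODE vM21 on GRCm38, which matched 55227 IDs; at most 0.013% of any library lay on the other 260.

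Counts were filtered with filterByExpr, scaled with TMM and tested in edgeR by quasi-likelihood (robust, group as the only term). The SE is the log2 fold change over the square root of F, and 95% intervals use its t distribution. The length correction fitted each library's log2 CPM deviations on log2 mean deposited length (natural spline, 5 degrees of freedom; genes averaging log2 CPM 2 or more), and the fit entered as offsets. The main fit, without the length correction, was run on simulated counts that held no length trend and far fewer changed genes than these data. The length correction was not run on them. Members, lists, tests and alternatives were chosen with earlier results of these data known. Named list genes are the 4 called genes of each list with the lowest adjusted p, or its 2 highest genes if none was called; Ccna2, Cdk1, Cdkn2a and Ighm were named after their values were seen, and 2 marker genes are not reported here. A floor is 3 counts, and a limit taken from it covers counting error only. The 95% intervals also take in the spread between libraries. Software was edgeR 4.0.16, DESeq2 1.42.0 and limma 3.58.1 in R 4.3.3, and matplotlib 3.10.9 in Python 3.11.15.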

Additional observations from a re-analysis of the deposited data

How the results depend on the processing

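Ccng2, Cdk4, Cdkn1b and Cdkn2d kept their direction and call under all 20 alternatives, with log2 fold changes of 0.48 to 0.60, −0.60 to −0.27, 0.54 to 0.78 and −0.42 to −0.21; Cdk6 (0.72 to 1.55) kept its call in all but effective-length offsets. Rb1 (0.08 to 0.38) lost its call in 6, given here with adjusted p: length correction (0.0998), length and GC correction (0.235), effective-length offsets (0.0944), log2(TPM + 1) (0.0502), log2(TPM + 0.1) (0.0501) and the test against a fold of 1.2 (0.969). Cdkn2c and Cdk2 were called under none of the 20.

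Leaving out each library in turn left 4 of the 10 genes higher and 2 lower, with 2579 to 2698 genes higher and 2486 to 2562 lower in all, 5 to 7 pathway genes higher and 10 to 12 lower. The number of the 10 genes with lengths that did not overlap was then 1 to 3, being 3 without untreated replicate 2, rapamycin replicate 1 or rapamycin replicate 3 and 2 without rapamycin replicate 2. The share of all genes without overlap was not counted with a library left out, so these counts have no background. The difference in the Ccnd2 share ranged from −0.922 to 1.39 percentage points around 0.155, turning to −0.840 without untreated replicate 3, −0.00786 without rapamycin replicate 2 and −0.922 without rapamycin replicate 3. That in Cdk6 per Cdk4 ranged from 0.0895 to 0.129, and that in inhibitors per kinase from 0.890 to 1.04. On expected counts the difference in Cdk6 per Cdk4 was 0.337, against 0.111 on TPM.

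Of the 10 genes, 4 were lower with upper-quartile factors, adding Ccnd2 (−0.06) and Ccnd3 (−0.09), and 2 were higher with effective-length offsets. Of all 11950 genes, upper-quartile factors called 2459 higher and 3330 lower, with the median moved by −0.043 and 42.5% of calls higher, and effective-length offsets called 1930 higher. Pathway genes higher numbered 4 with upper-quartile factors, no composition factors, DESeq2, either TPM scale and either length correction, 3 with effective-length offsets and 1 against a fold of 1.2; those lower numbered 4 on log2(TPM + 1), 5 on log2(TPM + 0.1) and 4 against a fold of 1.2. Over all genes, 1158 were lower on log2(TPM + 1), 1144 on log2(TPM + 0.1) and 1801 with effective-length offsets, and 990 were higher and 894 lower against a fold of 1.2. TPM moved the median of all genes by up to 0.108, and 70.1% to 70.3% of its calls were higher, against 50.8%.

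Signs turned for values near 0. Ccnd2 was 0.04 on either TPM scale and −0.03 to 0.01 with 1 library left out, the highest without rapamycin replicate 3. Ccnd3 was 0.03 on either TPM scale, 0.06 with the length correction and 0.07 with length and GC, where it was called (adjusted p = 0.0495). Cdk2 was 0.02 on either TPM scale. Cdkn2c was 0.27 on log2(TPM + 1), 0.34 on log2(TPM + 0.1), 0.23 with effective-length offsets, 0.14 with either length correction, and 0.09, 0.01, 0.05 and 0.06 without untreated replicate 1, untreated replicate 3, rapamycin replicate 2 and rapamycin replicate 3, with −0.19 the lowest with 1 library left out. The causes were not tested. Same-numbered libraries did not deviate together (correlations −0.025, −0.009 and −0.031), and with the replicate number as a block 4 of the 10 genes were higher and 2 lower, with 2850 genes higher and 2743 lower in all. Depth limited Cdkn2c, Ccnd1 and Cdkn1a.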

Other observations

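Cdkn1b had the smallest adjusted p of the 10 genes, and its profile over the 6 libraries was compared with those of 9978 other genes averaging log2 CPM 2 or more. The likeness was measured as the root mean square difference of log2 CPM centred on each gene's mean. The nearest were Hectd4 (0.020), Atn1 (0.026) and Peli1 (0.026), whose log2 fold changes were 0.60 ± 0.03, 0.58 ± 0.03 and 0.59 ± 0.02. Hectd4 had 368 CPM in rapamycin and 243 CPM in untreated libraries, Atn1 had 295 and 197 CPM and Peli1 had 504 and 335 CPM. This describes 6 libraries in 2 groups, in which the step between the groups sets most of the likeness.

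Of the 3 pocket protein genes, Rb1 (0.22; not called with the length correction) and Rbl1 (0.30) were higher while Rbl2, which encodes p130, fell to 143 CPM in rapamycin libraries, against 154 CPM in untreated libraries (−0.11, adjusted p = 0.0133; length-corrected −0.25, adjusted p = 9.57e-08). E2f1 fell to 1.17 ± 0.398 CPM, against 3.08 ± 0.548 CPM in untreated libraries (−1.39 ± 0.35, adjusted p = 6.26e-04). These 2 genes were chosen after their values were seen.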
